A study of Mus musculus with 4 samples.

Results

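Haem synthesis was examined in 8 enzyme genes, Alas1, Alas2, Alad, Uros, Urod, Cpox, Ppox and Fech, which were found by symbol in the annotation of the expression array. They had 19 of its 45101 probe sets and were 8 of the 18194 genes named there. A probe set is a group of short oligonucleotides that reads 1 stretch of transcript, usually near its 3′ end. RNA came from Runx1 Venus/+ ES cells, made from CCE ES cells, which carry the fluorescent Venus gene in 1 Runx1 allele under its proximal promoter P2 and so keep 1 intact allele. They were differentiated for 6 days on OP9 stromal cells and sorted into 4 populations. Population 1 was Runx1-/VE-cadherin+/Flk1+, population 2 Runx1+/VE-cadherin+/CD41-, population 3 Runx1+/VE-cadherin+/CD41+ and population 4 Runx1+/VE-cadherin-/CD41+. Each was hybridised to 1 Affymetrix whole-genome mouse expression array. With 1 array each there is no replicate check, so neither a test nor an error accompanies any difference, and all 4 arrays came from 1 cell line.

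Haem is the iron-containing ring that carries oxygen in haemoglobin and electrons in cytochromes. Its synthesis begins and ends in mitochondria: aminolaevulinate synthase joins glycine and succinyl-CoA, intermediate steps in the cytosol build the ring, and ferrochelatase inserts the iron. Nearly all cells make some haem with the housekeeping synthase ALAS1, whereas red cell precursors use a second synthase, ALAS2, whose gene is controlled by erythroid transcription factors. The enzyme of the third step, hydroxymethylbilane synthase, was not analysed here.

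Transcripts of the pathway were much more abundant in population 4 than in the 3 VE-cadherin positive populations. A gene is called higher or lower here where its brightest probe set differed by 2-fold or more. Between populations 4 and 3, 7 of the 8 genes were called higher, against 7.94% of the 9468 genes that passed a signal of 100 on some array, and 0 were called lower, against 12.2%. The 7 genes also differed by 4-fold or more (background 1.33%). Alas1, the housekeeping synthase, was the exception, with less signal in population 4. For population 4 over 3, the 8 genes had a median log2 ratio of 2.51 and all 9468 genes 0.06. In RNA from sorted pools, a larger share of cells of a type and more RNA per cell cannot be told apart. Signals below 100 were raised to 100 before ratios were formed, which makes any fold against them a minimum, written as "at least".

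**Figure D1:**
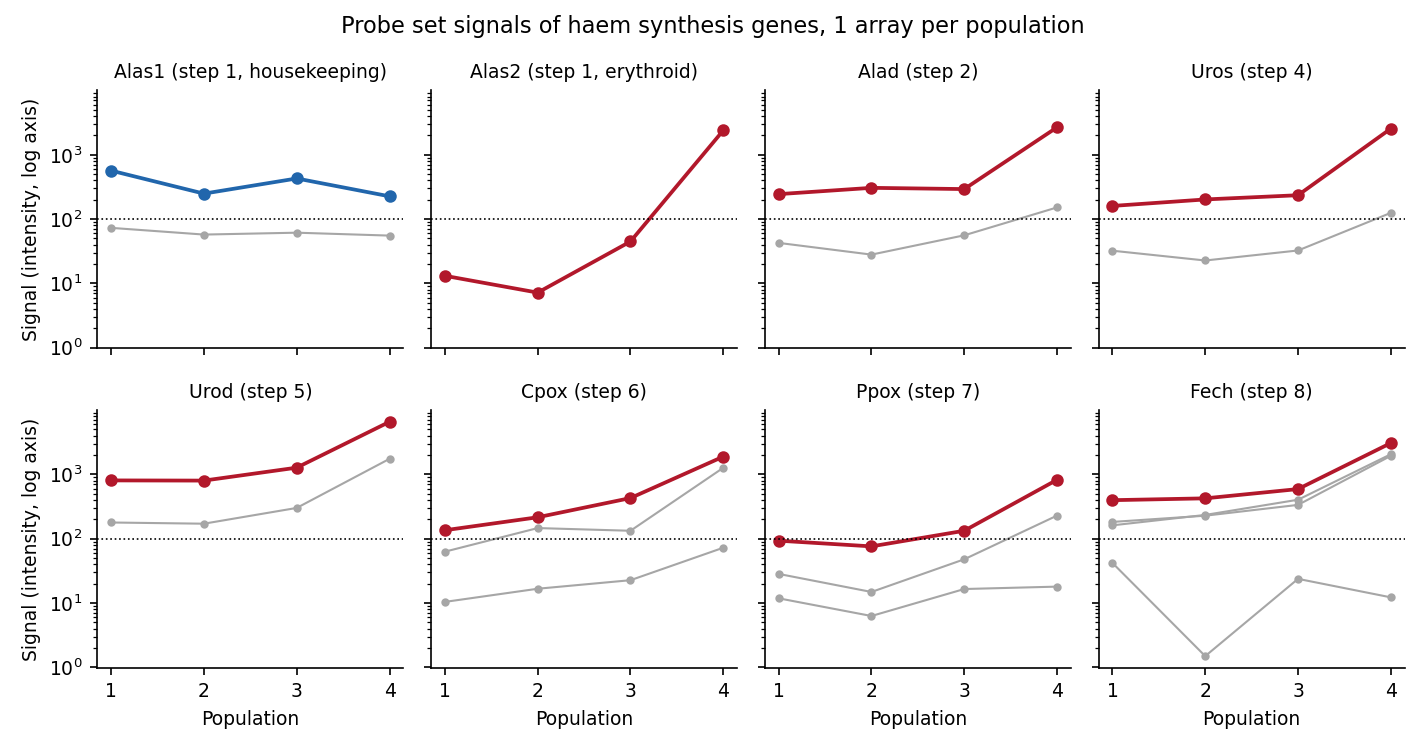
Signal (intensity units, log axis) of each probe set, by gene, across populations 1 to 4 (1 array each, no error bars). Coloured lines are the brightest probe set of each gene, grey lines the others, and the dotted line marks a signal of 100. Alas2 lies at 44.8 in population 3 and 2396 in population 4, while Alas1 is lowest in population 4 at 226.

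The synthase genes of the first step differed in opposite directions when population 4 was compared with populations 1 and 3, but their profiles were not mirror images. Alas2 had signals of 13.1, 7.18, 44.8 and 2396 in populations 1, 2, 3 and 4. It was thus above 100 in population 4 alone, and its only probe set was at least 24.0-fold higher there than in population 3. Alas1 had signals of 567, 249, 428 and 226. Population 1 was highest and population 4 lowest, with population 3 above population 2. Populations 2 and 4 lay close together, so Alas1 was already low in population 2, where Alas2 was below 100. Alas1 was 2.51-fold lower in population 4 than in population 1. It was 1.90-fold lower than in population 3, which is short of a call. Of the 9468 genes, 12.9% were called lower in the comparison of populations 4 and 1. The second Alas1 probe set stayed below 100, between 55.3 and 73.0, and averaging both probe sets gave Alas1 a log2 ratio of -0.86 in place of -1.33 for population 4 over 1, short of 2-fold. The log2 ratios of the synthase genes, population 4 over population 1, differed by at least 5.91.

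Sequence upstream of the members is given because all but Alas1 were higher in population 4. Alas1, which went the other way, was searched too. RefSeq promoters (GRCm38.p6, 250 bases before to 50 after a start site) were found for 7 of the 8 genes, all but Fech, with 10 start sites in all. The letters GATAA, the core bound by GATA factors, were searched on both strands. They occurred in 3 of these 10 promoters, 1 each of Alas2, Uros and Cpox. This is close to their share of 25.4% of 32851 promoters of that length, so the count does not set these promoters apart. The stretches shown are the upstream match of each of these 3 promoters and a CACCC box of Alas2, with the matching letters in capitals and the place of their first base counted from the start site.
Alas2, chrX:150547319-150547348, + strand, match at -86: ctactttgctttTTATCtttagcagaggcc
Cpox, chr16:58670110-58670139, + strand, match at -86: aaagcgcctatcTTATCagtccaagcacct
Uros, chr7:133702551-133702580, - strand, match at -68 from its second start site: tctccctcagccTTATCagtgacagagggc
Alas2, chrX:150547370-150547399, + strand, match at -35: cggaagggggtgGGGTGgggtgggcggggc
Cpox held a further GATA match 5 bases after its start site, which is not shown. All 4 matches lie on the opposite strand and are read as TTATC. The Alas2 promoter also held 3 CACCC boxes in a row, read as GGGTG, the letters bound by the erythroid factor KLF1. CACCC occurred in 6 of the 10 promoters, close to its share of 57.5% of all promoters. The Runx letters TGTGGT were found once, in the Urod promoter (16.8% of all), and TGCGGT in none (6.45% of all). The motifs searched did not overlap each other in these matches. A match is a description of these letters, and the arrays do not measure binding.

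The genes of the cytosolic enzymes were above 100 in all 4 populations and highest in population 4. Alad encodes aminolaevulinate dehydratase, which makes the first pyrrole. Its signals were 244, 306, 293 and 2673 in populations 1 to 4, so that populations 1 to 3 lay close together and population 4 was 9.13-fold above population 3. Uros, uroporphyrinogen III synthase, closes the ring in its natural isomer. It had 160.0, 202, 235 and 2551 and was 10.9-fold higher in population 4 than in population 3. Urod, uroporphyrinogen decarboxylase, trims the side chains. It had 805, 799.8, 1271 and 6566, a 5.17-fold difference at the same step, and its other probe set gave 5.80-fold with signals of 178, 171, 300.4 and 1743. The weaker probe sets of Alad and Uros passed 100 in population 4 alone, at 152 and 125.

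The last steps take place in mitochondria. Cpox, coproporphyrinogen oxidase, had 135, 215, 428 and 1888 in populations 1 to 4. By this probe set each population lay above the one before it. Its log2 ratio was 2.14 for population 4 over 3, which was 56.3% of that for population 4 over 1. The same share was 92.4% for Alad, 86.1% for Uros, 80.5% for Fech and 78.3% for Urod, the other genes above 100 throughout that were higher in population 4. The second Cpox probe set did not show the early part, with 146 in population 2 and 133 in population 3, and was 9.54-fold higher in population 4 than in population 3. Ppox, protoporphyrinogen oxidase, had 93.0, 75.8, 133 and 823. It was below 100 in populations 1 and 2 and 6.21-fold higher in population 4 than in population 3, but its log2 ratio was 0.58 in place of 2.63 when its 3 probe sets were averaged, 1 of them below 100 on all arrays. Fech, ferrochelatase, which inserts iron into the ring, had 397, 424, 591 and 3068. Its 3 probe sets above 100 were 5.20-fold, 5.10-fold and 5.79-fold higher in population 4 than in population 3, and the fourth stayed between 1.49 and 41.9.

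Of the 19 probe sets, 15 passed a signal of 100 in some population, 9 in all 4 populations and 4 in population 4 alone. For the 7 genes other than Alas1, 14 of 17 probe sets passed 100 and had their highest signal in population 4, which for 4 of them was the only population above 100 and so follows from passing. The other 3 probe sets, 1 each of Cpox, Ppox and Fech, stayed below 100 on all arrays.

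The steps before population 4 were small. For population 2 over 1, 0 of the 8 genes were called higher (background 2.92%) and Alas1 alone was called lower (background 4.19%), by 2.28-fold, which was short of 2-fold (log2 ratio -0.77) when its probe sets were averaged. For population 3 over 2, 0 genes were called higher (background 3.11%) and 0 lower (background 0.253%). These backgrounds depend on the scaling, with 294 genes higher and 24 lower as deposited, 93 and 94 with arrays centred on their medians and 1076 and 7 with arrays scaled on the hybridisation controls. The 8 genes had a median log2 ratio of 0.05 for population 2 over 1, where all genes had 0.00, and of 0.44 for population 3 over 2, where all genes had 0.22. For population 3 over 1, Cpox alone was called higher, by 3.17-fold (background 5.32%), and 0 genes were called lower (background 2.3%). The call of Cpox was lost when its probe sets were averaged (log2 ratio 0.12), and 15.5% of all genes were higher and 1.19% lower in this comparison on the hybridisation controls. As a yardstick, probe sets of the same gene, both above 100, disagreed on the log2 ratio (population 3 over 2) by a median of 0.15, with a 95th percentile of 0.55 over 5131 pairs. By that measure the order of populations 1 to 3 is not settled for Alad, Uros, Fech and Ppox, nor that of populations 1 and 2 for Urod, and Alas2 was below 100 in all 3. Probe sets of a gene share the array, so the measure leaves out spread between arrays and settles no order. For population 3 over 2, the Cpox probe sets gave log2 ratios of 0.99 and -0.14. Centring arrays on their medians took Urod from 0.67 to 0.25 and Alas1 from 0.78 to 0.36 in this comparison.

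**Figure D2:**
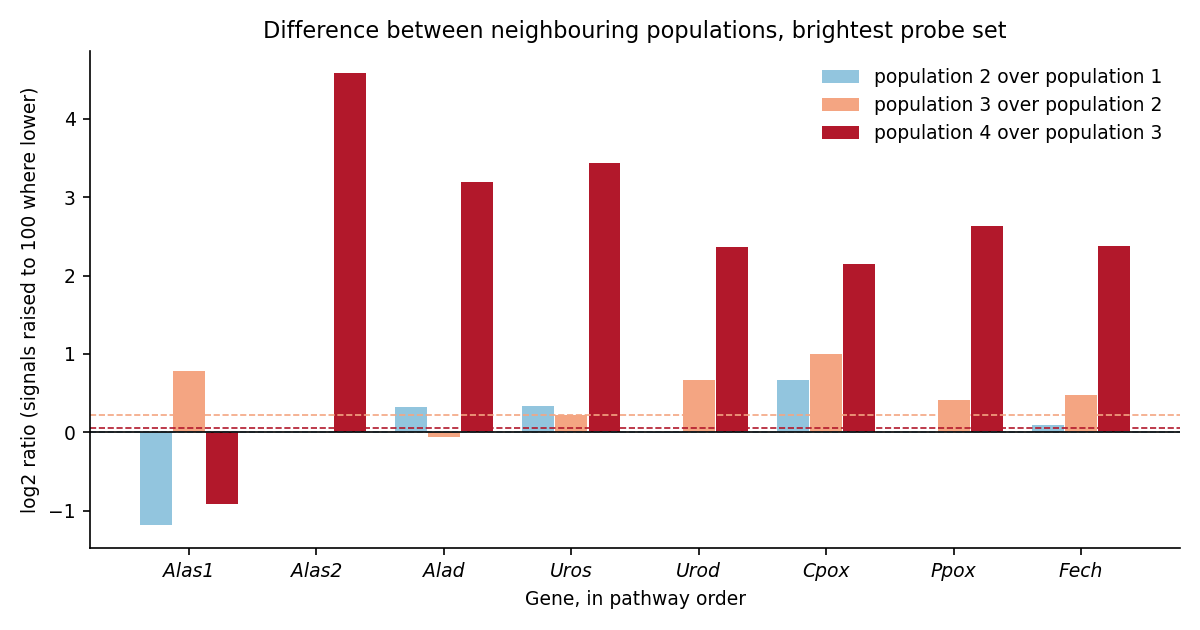
Log2 ratio between neighbouring populations for the brightest probe set of each gene, in pathway order, with signals raised to 100 where lower and 1 array per population. Dashed lines are the medians of all 9468 genes in the colour of each step. The dark red bars of 7 genes lie between 2.14 and 4.58, where that of Alas2 is a lower bound, and Alas1 lies below 0.

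For population 4 over 1, 7 genes were called higher (background 22.4%), all 7 by 4-fold or more (background 4.48%), and Alas1 was called lower. With arrays scaled on the hybridisation controls, 3312 of the 9468 genes were higher and 980 lower in this comparison, in place of 2123 and 1223. The folds were at least 24.0 for Alas2, 15.9 for Uros, 14.0 for Cpox, 10.9 for Alad, at least 8.23 for Ppox, 8.16 for Urod and 7.74 for Fech. Their median log2 ratio, Alas1 included, was 3.25, against 0.36 for all genes. At the step from population 3 to 4, 1.14% of the 9468 genes, bounds included, had a higher ratio than Cpox, the lowest of the 7, while 87.0% had a higher one than Alas1.

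**Figure D3:**
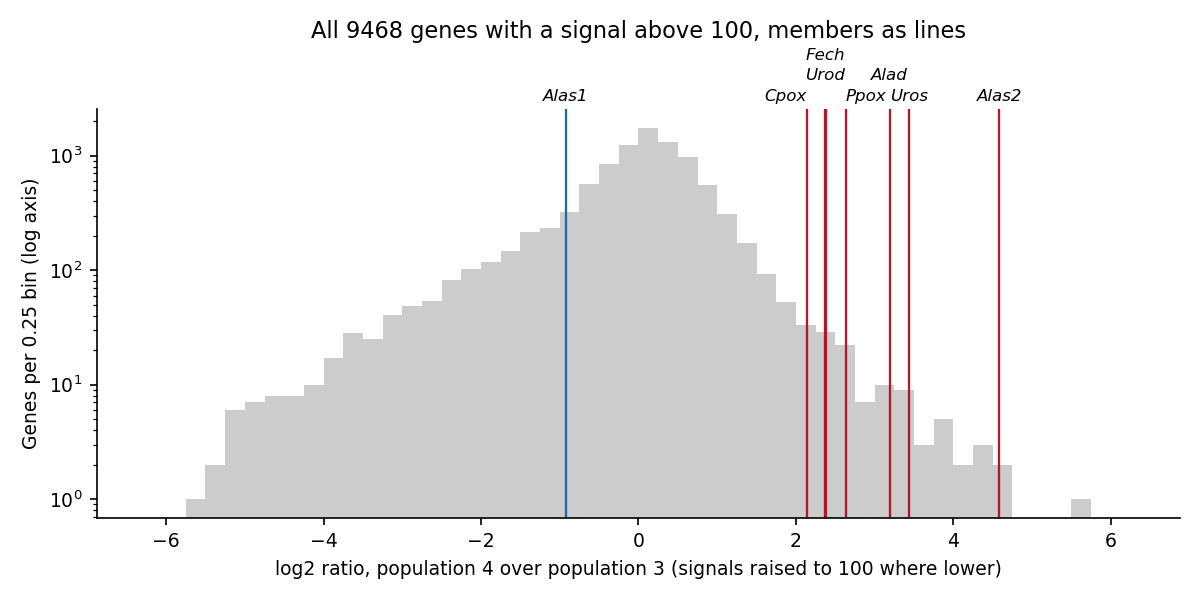
Distribution of the log2 ratio of population 4 over population 3 for the 9468 genes measured (number of genes, log axis), with the 8 genes as vertical lines. The 7 red lines lie from 2.14 (Cpox) to 4.58 (Alas2, a lower bound) in the right tail, and Alas1 (blue) at -0.92.

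Among the members, the profiles of Urod, Fech and Ppox were most alike. The Euclidean distance between their 4 log2 signals, each raised to 100 where lower and centred on the gene's mean, was 0.15 for Urod and Fech, 0.19 for Ppox and Fech and 0.22 for Urod and Ppox. Alas1 was 3.20 or more from every other member. By the same distance over 6054 genes with a signal of at least 400 in some population, the 5 genes nearest to Alas2 were Klf1 (0.07), Slc4a1 (0.10), Gata1 (0.18), Mllt3 (0.22) and Tubb1 (0.40). All of these but Mllt3 were, like Alas2, below 100 in populations 1 to 3, so that they passed the filter through population 4 and their distances reflect the signal there alone. Klf1 and Gata1 encode erythroid transcription factors and Slc4a1 the anion exchanger of the red cell membrane. Klf1 had signals of 6.08, 34.8, 25.6 and 2538 in populations 1 to 4. With signals raised to 1 in place of 100, 2 of these 5 genes were again among the nearest 5. Nearest to Alad were Gucy1a1, Tent5c and Epb42, to Uros Rgs10, Tspoap1 and Pfkfb4, to Cpox Tnni1, Uba7 and Tk1, and to Ppox Aqp8, Rpia and Dclre1b. Ikzf1, Fech and Aqp8 were nearest to Urod, and Aqp8, Dclre1b and Urod to Fech. Of these neighbours, Tent5c and Epb42 were below 100 in populations 1 to 3. Gucy1a1, Rgs10, Tspoap1, Ikzf1, Aqp8 and Dclre1b were below 100 in populations 1 and 2, and Pfkfb4, Tnni1 and Tk1 in population 1. All of them passed the filter through population 4 alone, and where they were below 100 their profile was set by the floor. Alas1 lay nearest to Agap3, Zfp36 and Gnb4. Zfp36, which encodes an mRNA decay factor, shared the alternation of Alas1, with 965, 488, 732 and 398. Each likeness rests on 4 arrays.

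Mitochondrial transport genes differed among themselves. Of 10 genes for mitochondrial carriers and transporters of haem precursors and iron, all with a signal above 100, 6 were called higher and 1 lower for population 4 over 3, where 7.94% and 12.2% of all genes were (median log2 ratio 1.41). Slc25a37 encodes mitoferrin 1, the erythroid iron importer. It had 135, 185, 216 and 3357 in populations 1 to 4 and was 15.5-fold higher in population 4 than in population 3. Abcb10, a transporter that stabilises mitoferrin 1, had 144, 169.8, 250.2 and 1583. Abcb6, which moves porphyrins, had 137, 283, 375 and 1748, and Tmem14c, which brings protoporphyrinogen to the last enzymes, 959, 1094, 1587 and 6895. These 4 genes were named for having the largest ratios of the list, whereas Slc25a39, Slc25a28 and Tspo had log2 ratios of 0.48, -0.02 and 0.50 and passed neither call. Slc25a38, the glycine carrier that supplies ALAS2, was picked after its values were seen and had 629 in population 4 and 239 in population 3. Mtch1, a mitochondrial carrier homologue, was the 1 lower gene, with 634 in population 4 and 1695 in population 3.

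Supply of glycine and succinyl-CoA differed less. Of 7 genes above 100, 0 were called higher or lower for population 4 over 3 (median log2 ratio 0.38), where 7.94% and 12.2% of all genes were. For population 4 over 1, 3 were called higher, where 22.4% of all genes were. The glycine transporter gene Slc6a9 had 163, 232, 318 and 563 in populations 1 to 4. Ogdh, a subunit gene of the complex that makes succinyl-CoA, had 262, 303, 384 and 619.7. Suclg1, which encodes a subunit of succinyl-CoA ligase, had 2133 in population 4 and 983 in population 1. Shmt2, the mitochondrial enzyme that interconverts serine and glycine, was 2.03-fold higher in population 2 than in population 1 and then level, with 2268, 2059 and 2087 in populations 2 to 4.

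Iron-sulphur clusters are needed by ferrochelatase itself. Of 9 genes for their assembly, 3 were called higher and 0 lower for population 4 over 3 (median log2 ratio 0.695), where 7.94% and 12.2% of all genes were. Lyrm4, a partner of the cysteine desulphurase, had 137, 225, 183 and 655 in populations 1 to 4. Glrx5, a glutaredoxin that passes clusters on, had 2219, 3067, 3341 and 9528. Nfs1, the desulphurase, had 373, 487, 695 and 1142, and Isca2 937 in population 4 and 462 in population 3. Of 8 measured genes of iron uptake and storage, 2 were called higher and 1 lower in the same comparison, against the same shares of all genes. The transferrin receptor gene Tfrc was 4.74-fold higher in population 4 than in population 3 and Ncoa4, which targets ferritin for breakdown, 3.32-fold. Slc40a1, the iron exporter ferroportin, had 95.4 in population 4 and 329 in population 3. Fth1, the ferritin heavy chain, had 12907 in population 4 and 10666 in population 3.

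Genes for factors that act on the synthases or respond to haem were called about as often as all genes. Of 12 measured, 1 was called higher and 1 lower for population 4 over 3 (median log2 ratio 0.17), where 7.94% and 12.2% of all genes were. The higher one was Eif2ak1, the kinase that halts protein synthesis when haem is short, with 100.3, 75.0, 138 and 502 in populations 1 to 4. Foxo1, a transcription factor gene, was the lower one, with 931, 439, 625 and 196. It shared with Alas1 the higher signals of populations 1 and 3. The mitochondrial proteases Lonp1 and Clpp, which degrade ALAS1, had 1256 and 1209 in population 4, and 449.9 and 489 in population 1.

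Downstream of synthesis, the genes of haem breakdown moved apart. Blvrb, a biliverdin reductase gene of red cells, had 301, 261, 423 and 4285 in populations 1 to 4 and was 10.1-fold higher in population 4 than in population 3. Blvra, the other reductase, had 443 in population 4 and 193 in population 3. Hmox1, the inducible haem oxygenase that opens the ring, had 115 in population 4 and 289.7 in population 3, and Hmox2, the constitutive one, 801 and 982. Of 6 measured genes of haem transport and binding, 1 was called higher for population 4 over 3 (background 7.94%). This was Hebp1, a haem binding protein gene, with 731, 284, 471 and 2239 in populations 1 to 4. The haem exporter gene Flvcr1 had 852 in population 4 and 534 in population 3, Slc48a1, a haem importer gene, 247 and 159.8, and Abcg2, a porphyrin exporter gene, 3211 and 1887.

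**Figure D4:**
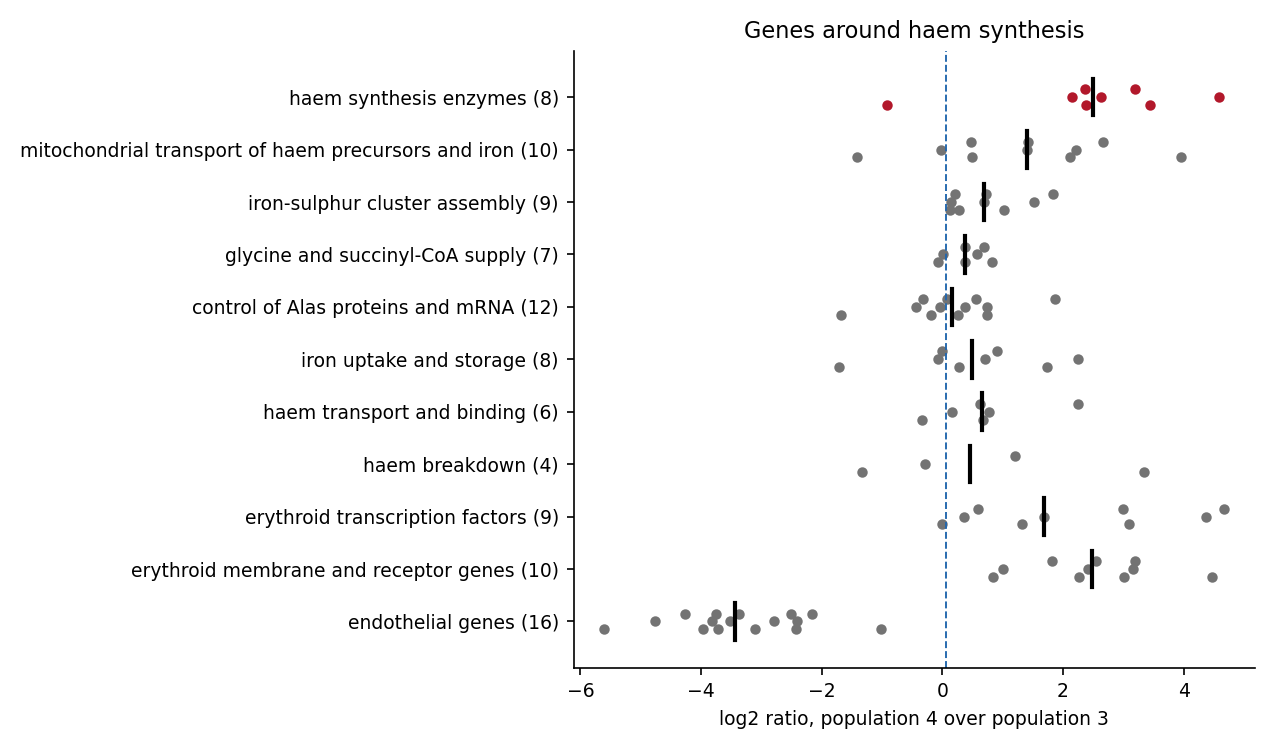
Log2 ratio of population 4 over population 3 for the genes around haem synthesis with a signal above 100, by list (number of genes in brackets), 1 array per population. Points are genes, black bars list medians, and the dashed line the median of all 9468 genes. Haem enzymes have a median of 2.51, erythroid membrane and receptor genes 2.48 and endothelial genes -3.44.

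Markers of other cell types differed at the same step. Of 10 measured erythroid membrane and receptor genes, 9 were called higher for population 4 over 3 (background 7.94%). Their summed signal was 18226 in population 4, 6540.0 in population 3, 5344 in population 2 and 1679 in population 1. Most of these sums in populations 1 to 3 came from Car2, a carbonic anhydrase gene with 1221, 4722, 5511 and 9870.3 in populations 1 to 4, and only 2, 2 and 3 of the 10 genes passed 100 there. Epb42, Sptb, Ank1, Slc4a1, Rhag, Ermap and Kel counted as measured through population 4 alone. That they were higher there follows from passing, so the count of 9 is no independent result. Of 16 endothelial genes, all 16 were called lower (background 12.2%), with sums of 3773 in population 4 and 29574 to 50524 in populations 1 to 3. Of the stromal genes of the OP9 layer, 7 of 12 passed 100, with sums between 2268 in population 4 and 5142 in population 1. Among them, Col1a2 had 1988, 1132, 969.9 and 843 in populations 1 to 4, Acta2 1173, 1065, 732 and 647, Col3a1 658, 334, 376 and 251, and Tagln 612, 731, 409 and 133, while Col1a1, Dcn and Lum, named after their values were seen, stayed below 100. Of 7 measured myeloid genes, 1 was called higher and 0 lower for population 4 over 3, where 7.94% and 12.2% of all genes were. Of 8 measured megakaryocyte genes, 4 were called higher and 1 lower, against the same shares. The part of these cell types in the haem enzyme values was not tested.

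The sort on Runx1 and VE-cadherin was reflected in the arrays. Runx1 was at 55.3 in population 1 and 358 to 2440.2 in the others, and the VE-cadherin gene Cdh5 at 40.9 in population 4 and 3946 to 5683 in the others. Kdr, which encodes Flk1, had 5866, 4496, 4835 and 906 in populations 1 to 4. The CD41 gene Itga2b followed the sort less clearly. It had 667 in population 1, 1135 in the CD41- population 2, and 2418 and 1609.5 in the CD41+ populations 3 and 4. Between 8097 and 8666 genes passed a signal of 100 per array. Of 11 housekeeping genes, 0 were called higher or lower for population 4 over 3 (median log2 ratio -0.03), where 7.94% and 12.2% of all genes were. For population 4 over 1, 2 were called higher and 1 lower, where 22.4% and 12.9% of all genes were. The lower one, B2m, had 4563, 1659, 3895 and 2050 in populations 1 to 4, an alternation like that of Alas1. The ratio of 3′ to 5′ probe sets of Actb, which rises as RNA degrades, was 1.28 to 1.39.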

How the data were processed

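The authors deposited probe set signals in linear intensity units from Affymetrix whole-genome mouse expression arrays, 1 for each of 4 sorted populations (3′IVT Express Kit). The submitters' processing notes name MAS5 and GCOS 1.3. The scaling target, any masking and the detection calls are not given in the sources used here; the number of arrays limits the precision. Of 45101 probe sets, 34958 had 1 gene symbol, 932 several and 9211 none; only the 34958 were used. Each of 18194 genes was read by its brightest probe set, by mean log2 signal. Log2 ratios used signals raised to 100 where lower, and differences of 2-fold or more were counted over the 9468 genes that passed 100 on some array. No test was possible with 1 array per population.

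All members were named, then up to 4 genes of each further list with the largest ratio of population 4 over population 1, and the 5 or 3 nearest profiles. Members and lists were chosen with earlier results of these data known. Alternatives were other scalings, floors and probe set rules. The computation was tested on simulated data. Python 3.11.15, pandas 2.3.3, numpy 2.4.6 and matplotlib 3.10.9 were used.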

Additional observations from a re-analysis of the deposited data

How the results depend on the processing

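The count of 7 genes called higher for population 4 over 3, and for population 4 over 1, was also 7 under 8 of 9 alternatives and 6, without Ppox, with the mean over probe sets. The members' median log2 ratio for population 4 over 1 (3.25) was 3.02 after quantile normalisation, 3.57 scaled on hybridisation controls, 2.49 with the mean over probe sets and 3.56 without probe sets ending in _s_at or _x_at. That for population 3 over 2 (0.44) was 0.13 after centring each array on its median, 0.20 after quantile normalisation, 0.72 scaled on hybridisation controls, 0.14 on poly-A controls, 0.73 with a floor of 1 and 0.24 with the mean. That for population 3 over 1 (0.48) was 0.24, 0.22, 0.73 and 0.25 under the same 4 scalings, 0.25 (0.246) with a floor of 200 and 0.06 with the mean. Members called higher for population 3 over 2 (0) were 3 on hybridisation controls and 1 each with a floor of 1 and with the mean, and those for population 3 over 1 (1) were 2 with a floor of 1, 2 without those probe sets and 0 with the mean. The cause was not tested. The scalings moved the median of all genes for population 4 over population 1 from 0.36 to between 0.12 and 0.67, and all genes called higher from 2123 to between 1426 and 3312, with 1467 and 980 lower in place of 1223. No paired analysis was possible because each population had 1 array, so no replicate could be left out either.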

Other observations

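Transcripts of 3 embryonic globin genes passed 100 in an earlier population than Alas2. In population 3 the embryonic globin genes Hbb-bh1, Hba-x and Hbb-y had signals of 3568, 568 and 271, against 151, 41.4 and 15.2 in population 2, while Alas2 (44.8), Klf1 (25.6), Gata1 (50.7) and Slc4a1 (28.6) were below 100 in population 3. In population 4 the same globin genes had 15940.0, 10684 and 13284, whereas Hbb-b2 had 159 in population 4 and 37.1 in population 3, and Hba-a1 and Hba-a2 stayed below 100 on all arrays. Hba-a1 and Hba-a2 were read by 1 probe set each, and Hbb-b1, Hbb-bs and Hbb-bt were not found. Probe sets with several gene symbols were left out, so low signals here do not show that these globins were absent. Nfe2, an erythroid and megakaryocytic transcription factor gene, resembled the globins, with 277 in population 3 and 42.4 in population 2. Of 9 measured genes listed as erythroid transcription factors, 6 were called higher and 0 lower for population 4 over 3 (backgrounds 7.94% and 12.2%). Klf1 and Gata1 were measured through population 4 alone. Tal1 (581, 1094, 1346 and 3360 in populations 1 to 4) and Zfpm1 (277, 364, 542 and 1740) passed 100 throughout. Lmo2, Ldb1 and Kat2a were not called (log2 ratios -0.01, 0.58 and 0.36). Passing 100 depends on how bright a gene is, so it does not give an order in time. For population 4 over 3, Hbb-bh1 was 4.47-fold, Hba-x 18.8-fold and Hbb-y 49.0-fold higher, and Alas2 at least 24.0-fold. The comparison rests on 1 array per population.

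Genes listed for haem proteins other than the globins were not called higher in population 4 than in population 3. Of 12 measured genes of haem proteins and their partners, 0 were called higher and 1 lower for population 4 over 3, where 7.94% and 12.2% of all genes were. Counts this small do not set these 12 apart from other genes. The lower one was Nos3, the endothelial nitric oxide synthase gene, below 100 in population 4 and at 1072 in population 3, at least 10.7-fold lower. The cytochrome genes Cyc1 and Cycs, of the respiratory chain, had 3586 and 9280 (9279.9) in population 4, against 2242 and 6981 in population 3, and Sdhc, a subunit gene of succinate dehydrogenase, 1243 against 861.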
